A study of Mus musculus with 20 samples.

Results

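miR-128 is a brain-enriched microRNA (miRNA) made from 2 gene copies, and all of its arms in the data are described here: mmu-miR-128-3p, mmu-miR-128-1-5p and mmu-miR-128-2-5p, 3 of the 1886 mature miRNAs listed. The members were taken by name. Each had reads in every library and passed the filter on low counts, which kept 542 miRNAs for testing. Small RNA was sequenced from primary cultures of ventral midbrain cells, taken from embryos of C57Bl6/J mice at E12.5 after removal of the meninges and grown without serum in Neurobasal-A with B27 supplement, which all groups shared. There were 4 groups of 5 libraries: 5 days in vitro (DIV5) with 10 ng/ml GDNF, DIV5 without GDNF (DIV5 control), 1 day in vitro (DIV1) with 10 ng/ml GDNF, and DIV1 without GDNF (DIV1 control). GDNF, glial cell line-derived neurotrophic factor, is a survival factor of midbrain dopaminergic neurons. The question was how it changes the miRNAs of these cultures on each day. Whether replicates are separate cultures or embryos is not stated in the labels, so p-values measure only the spread between these libraries.

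A miRNA hairpin is cut into a duplex of a 5p and a 3p arm. One arm is usually kept in the Argonaute complex, where its seed (bases 2 to 8) pairs with target mRNAs, while the other is mostly degraded. For miR-128 the kept arm is the 3p arm, known in the mouse brain for its rise with neuronal differentiation and for limiting neuronal excitability. Its gene copies lie within introns of protein-coding genes. The hairpins are shown because they decide which reads can be told apart. RefSeq (GRCm38.p6, the assembly also called mm10) places Mir128-1 at chr1:128202361-128202430 on the plus strand and Mir128-2 at chr9:112118636-112118711 on the minus strand. In GENCODE vM21 the first lies in an intron of R3hdm1, 5264 and 4562 bases from the nearest exons, and the second in an intron of Arpp21, 1869 and 472 bases from the nearest exons. Each copy is on the strand of its host gene and overlaps none of its exons. In the hairpins below, capitals mark the 5p arm, which comes first, and the 3p arm.
Mir128-1: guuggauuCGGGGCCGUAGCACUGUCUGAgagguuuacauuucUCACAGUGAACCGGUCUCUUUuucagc
Mir128-2: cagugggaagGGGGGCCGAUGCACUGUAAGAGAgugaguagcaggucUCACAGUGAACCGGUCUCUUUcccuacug

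The mature arms follow, with the seed in capitals.
miR-128-3p: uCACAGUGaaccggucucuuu
miR-128-1-5p: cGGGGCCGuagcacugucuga
miR-128-2-5p: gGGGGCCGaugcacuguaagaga
The 3p arm is identical in both copies over all 21 bases, so its reads cannot be assigned to a copy. The 5p arms differ at 5 of the 21 bases compared from their 5′ ends, and a read of either names its copy. Both 5p arms have the seed GGGGCCG. Among 1679 mature names in the RefSeq table no other miRNA has that seed or the seed CACAGUG of miR-128-3p. How the authors counted reads that match both copies is not given in the sources used here.

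The libraries held between 420118 and 4324505 counts, so a single read was worth 0.198 to 2.6 CPM (reads scaled to library size with TMM factors), and a count of 0 would allow up to 0.593 to 7.8 CPM. Such limits and the binomial intervals given here cover counting error only, since the labels describe no molecular identifiers and PCR copies may be counted more than once. Reads without a feature, outside listed miRNAs, were set against their sum with the miRNA counts. At DIV5 they made up 17.7% to 19.5% in the libraries numbered 1 and 2 and 9.51% to 13.3% in those numbered 3 to 5. Values within each set are therefore given beside the comparisons with DIV5. The 15 neuron-enriched arms of a marker list summed to 64270 to 104800 CPM at DIV5 and 57220 to 93200 CPM at DIV1. Among them, miR-9-5p averaged 67010 to 74330 CPM over the groups and miR-124-3p 2359 to 6064 CPM. miR-138-5p, another neuronal marker, was listed at 0 in every library, as were miR-219a-5p (oligodendrocyte lineage) and miR-126a-5p (endothelium). Other arms of these hairpins had reads. Over all libraries miR-138-1-3p averaged 45.1 CPM, miR-138-2-3p 7.76, miR-219a-1-3p 224, miR-219a-2-3p 401 and miR-126a-3p 53.1 CPM. The zeros are therefore not read as absence, and how they arose was not tested.

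The 3p arm dominated in every library. miR-128-3p was more abundant at DIV5 than at DIV1, both with and without GDNF, and it ranked 30th and 27th of 542 miRNAs at DIV5 with and without GDNF, against 51st in both DIV1 groups. Its level was 6910, 10662, 6499, 6482 and 6713 CPM in DIV5 GDNF libraries 1 to 5. It was 10984, 13586, 6188, 7039 and 6407 CPM in DIV5 control libraries 1 to 5. The library numbered 2 was the highest of its group in both DIV5 groups. At DIV1 it was 1738, 2792, 2926, 2848 and 4482 CPM with GDNF. DIV1 control libraries had 1844, 2777, 2777, 2598 and 4498 CPM. Every DIV5 library lay above every DIV1 library, with or without GDNF. In both DIV1 groups number 1 was the lowest and number 5 the highest.

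**Figure D1:**
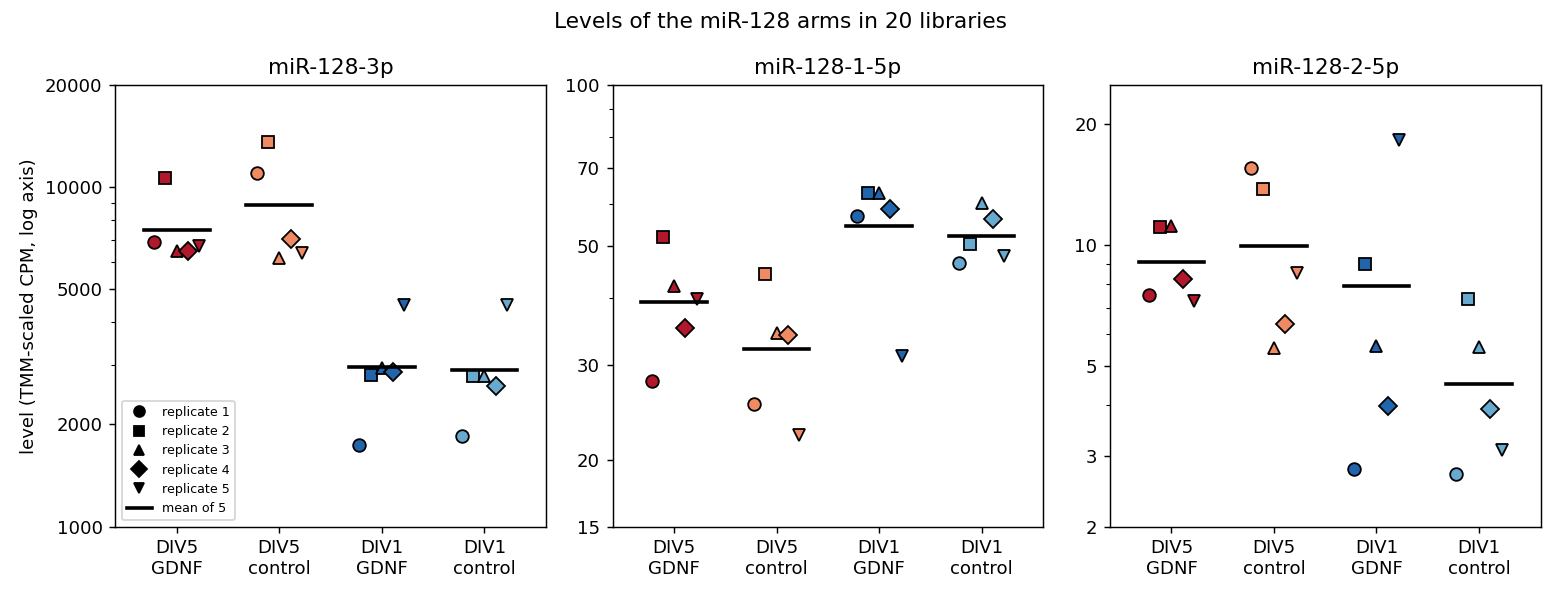
Level of each miR-128 arm (TMM-scaled CPM, log axis) in every library of the 4 groups; markers give the replicate number and lines the mean of 5 libraries. miR-128-3p lies between 6188 and 13586 CPM at DIV5 and between 1738 and 4498 CPM at DIV1, while miR-128-1-5p has its higher means at DIV1.

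With GDNF, miR-128-3p averaged 7453 ± 1802 CPM at DIV5 and 2957 ± 981 CPM at DIV1 (SD, n = 5 each), a 2.52-fold difference. Its log2 fold change was 1.33 (SE 0.267, edgeR adjusted p = 0.00037). Without GDNF it averaged 8841 ± 3291 CPM at DIV5 and 2899 ± 973 CPM at DIV1, a 3.05-fold difference (log2 1.61, SE 0.269, edgeR adjusted p = 4.74e-05). The background was high: edgeR called 52.4% of the 542 miRNAs with GDNF (25.1% higher, 27.3% lower) and 60.7% without it (31.4% higher, 29.3% lower). Libraries of the 2 days did not overlap for 36.9% of miRNAs with GDNF (18.6% higher, 18.3% lower) and for 39.3% without (20.1% higher, 19.2% lower). With total counts in place of TMM scaling, 58.7% of the calls with GDNF were higher in place of 47.9%, and without GDNF 67.3% in place of 51.7%. The median log2 value of all miRNAs then stood at 0.149 in place of 0.00167 with GDNF and at 0.357 in place of 0.103 without. By log2 value miR-128-3p was 39th of 542 with GDNF and 55th without. With the DIV5 libraries numbered 1 and 2 alone the log2 values were 1.57 with GDNF and 2.14 without (adjusted p = 0.00148 and 0.000121). With those numbered 3 to 5 they were 1.19 and 1.17 (adjusted p = 0.000774 and 0.000713).

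miR-128-1-5p, the passenger arm of the copy in R3hdm1, had lower levels at DIV5, opposite in direction to the 3p arm. Its level was 28.1, 52.0, 42.1, 35.2 and 39.8 CPM in DIV5 GDNF libraries 1 to 5. It was 25.4, 44.4, 34.4, 34.2 and 22.3 CPM in DIV5 control libraries. Library 2 was again the highest in both DIV5 groups. DIV1 GDNF libraries had 56.9, 62.9, 62.9, 58.7 and 31.2 CPM, the last from 12 reads in the shallowest library of the series. DIV1 control libraries had 46.5, 50.4, 60.1, 56.3 and 48.0 CPM. Without GDNF the days did not overlap, and with GDNF they overlapped through DIV1 library 5. Without GDNF it averaged 32.2 ± 8.70 CPM at DIV5 and 52.3 ± 5.75 CPM at DIV1 (SD, n = 5 each), and the log2 value of -0.71 (SE 0.212) passed, with an edgeR adjusted p of 0.00653. With GDNF the means were 39.4 ± 8.83 CPM at DIV5 and 54.5 ± 13.3 CPM at DIV1, and the log2 value of -0.49 (SE 0.209) did not pass (edgeR adjusted p = 0.0516). It did pass without DIV1 GDNF library 5 (log2 -0.57, adjusted p = 0.0207) or without DIV5 GDNF library 2 (log2 -0.58, adjusted p = 0.0305), and over all libraries with DESeq2 (log2 -0.49, adjusted p = 0.0342) and limma voom (log2 -0.55, adjusted p = 0.0278). The fall without GDNF was not called without DIV5 control libraries 1 and 5 (log2 -0.46, adjusted p = 0.0752) or with no filter on low counts (log2 -0.50, adjusted p = 0.138). Within DIV5 numbers 1 and 2 the log2 values were -0.48 with and -0.56 without GDNF, and within numbers 3 to 5 they were -0.47 and -0.78. Of these 4 values the last was called (adjusted p = 0.0051; the others between 0.0689 and 0.195).

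miR-128-2-5p, the passenger arm of the copy in Arpp21, was the rarest arm, with 2 to 45 reads in a library. DIV5 GDNF libraries 1 to 5 had 15, 19, 45, 33 and 28 reads, or 7.52, 11.1, 11.2, 8.23 and 7.28 CPM. DIV5 control libraries had 33, 14, 28, 21 and 39 reads, or 15.6, 13.8, 5.54, 6.36 and 8.52 CPM. The control libraries numbered 1 and 2 were the highest at DIV5. DIV1 GDNF libraries had 2, 10, 9, 4 and 7 reads, or 2.78, 8.99, 5.61, 3.98 and 18.2 CPM. DIV1 control libraries had 4, 8, 4, 3 and 2 reads, or 2.70, 7.33, 5.59, 3.93 and 3.10 CPM. The days overlapped in both comparisons. Without GDNF this arm rose to 9.96 ± 4.49 CPM at DIV5, against 4.53 ± 1.92 CPM at DIV1 (SD, n = 5 each; log2 1.05, SE 0.428, edgeR adjusted p = 0.0388). With GDNF it averaged 9.06 ± 1.92 CPM at DIV5 and 7.91 ± 6.21 CPM at DIV1 (log2 0.38, SE 0.399), and no change was called (edgeR adjusted p = 0.428).

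The rise of miR-128-2-5p without GDNF is uncertain. The arm passed the filter, 6.03 CPM before TMM scaling, in all 10 DIV5 libraries but in 3 of 10 DIV1 libraries, so it entered the test mainly through the day on which it was higher. With no filter the log2 value was 1.26 (edgeR adjusted p = 0.018). The call was lost without DIV1 control library 1, 4 or 5 (adjusted p = 0.108, 0.0656 and 0.0677) or DIV5 control library 1 or 2 (adjusted p = 0.0989 and 0.0625). Within DIV5 numbers 1 and 2 the log2 value was 1.76 (adjusted p = 0.00811) and within numbers 3 to 5 it was 0.57 (adjusted p = 0.251). With GDNF these values were 0.43 and 0.41 (adjusted p = 0.521 and 0.375).

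**Figure D2:**
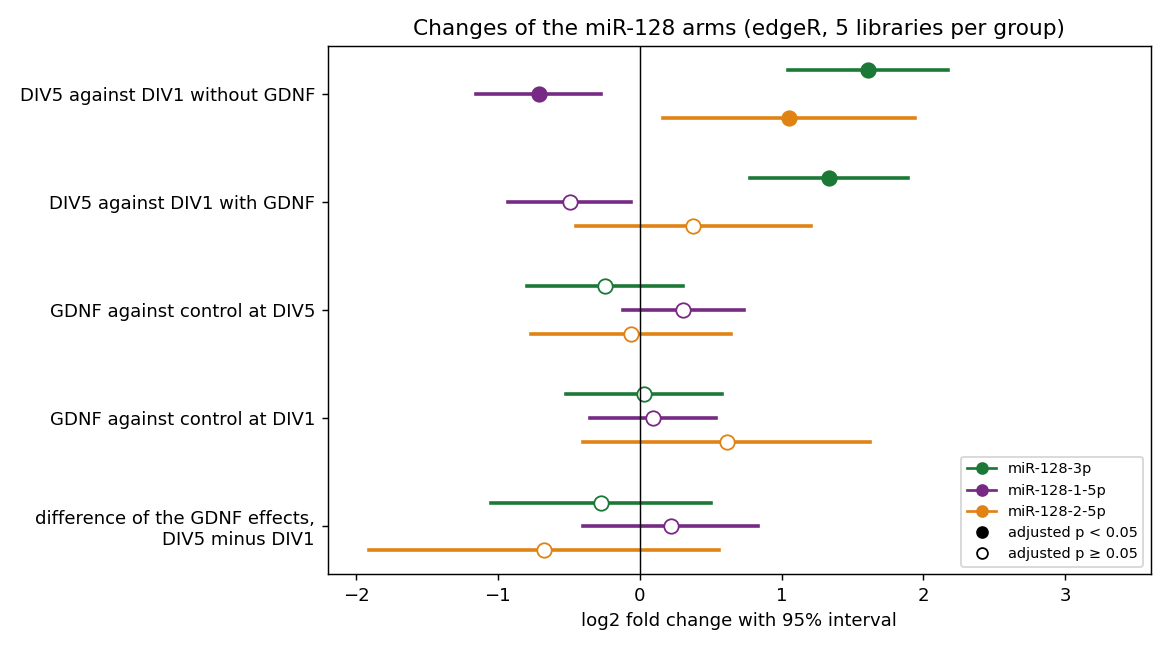
Log2 fold change of each miR-128 arm in the 5 comparisons, with its 95% interval from edgeR; filled points passed an adjusted p of 0.05. Without GDNF the 3p arm (1.61) and miR-128-2-5p (1.05) are higher at DIV5 and miR-128-1-5p (-0.71) is lower. The rise of miR-128-2-5p is uncertain: it was called in 12 of 21 alternatives, and the arm passed the filter mainly at DIV5. Between the days with GDNF, the 3p arm stands at 1.33 (interval 0.78 to 1.89). There miR-128-1-5p stands at -0.49 (-0.93 to -0.06, not called) and miR-128-2-5p at 0.38 (-0.45 to 1.21). All intervals of GDNF against control and of the difference of the GDNF effects include 0.

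The reads of the 5p arms were compared within each library, where no scaling between libraries is needed. These arms made up on average 0.498% (DIV5 control) to 2.27% (DIV1 GDNF) of the miR-128 reads of a group. They differ in sequence, and whether their balance follows the output of the copies was not tested. miR-128-1-5p had more reads than miR-128-2-5p in all 20 libraries. The share of 5p reads that came from miR-128-2-5p averaged 23.8% ± 9.74 in DIV5 control libraries and 7.85% ± 2.94 in DIV1 control libraries (SD, n = 5 each). Single libraries ranged from 13.9% to 37.9% at DIV5 and from 5.48% to 12.7% at DIV1, without overlap. The log2 ratio of miR-128-1-5p to miR-128-2-5p (0.5 added to each count) was 1.75 ± 0.777 at DIV5 and 3.44 ± 0.477 at DIV1, a difference of -1.70 (n = 5 each, exact permutation p = 0.00794, adjusted over 8 tests p = 0.0212). The smallest p that 5 against 5 libraries can give is 0.00794. Without DIV5 control libraries 1 and 5 the difference was -1.22 (exact p = 0.0357, the smallest 3 against 5 can give; adjusted p = 0.0952).

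With GDNF the share from miR-128-2-5p was 18.8% ± 2.37 at DIV5 and 13.7% ± 13.3 at DIV1 (SD, n = 5 each). The difference in log2 ratio was -0.84 and did not pass (exact permutation p = 0.183, adjusted p = 0.292). DIV1 GDNF library 5 stood apart with a share of 36.8% from 19 reads (exact Clopper-Pearson 95% interval 16.3% to 61.6%), where the other 4 libraries had 4.65% to 12.5%. Without that library the difference was -1.39 (exact permutation p = 0.0159, adjusted p = 0.0317). Within DIV5 numbers 1 and 2 the difference was -0.90 with and -2.27 without GDNF, and within numbers 3 to 5 it was -0.80 and -1.31. Pooled over the 5 libraries, miR-128-2-5p gave 140 of the 5p reads and miR-128-1-5p 609 in DIV5 GDNF libraries, against 32 and 283 in DIV1 GDNF libraries.

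**Figure D3:**
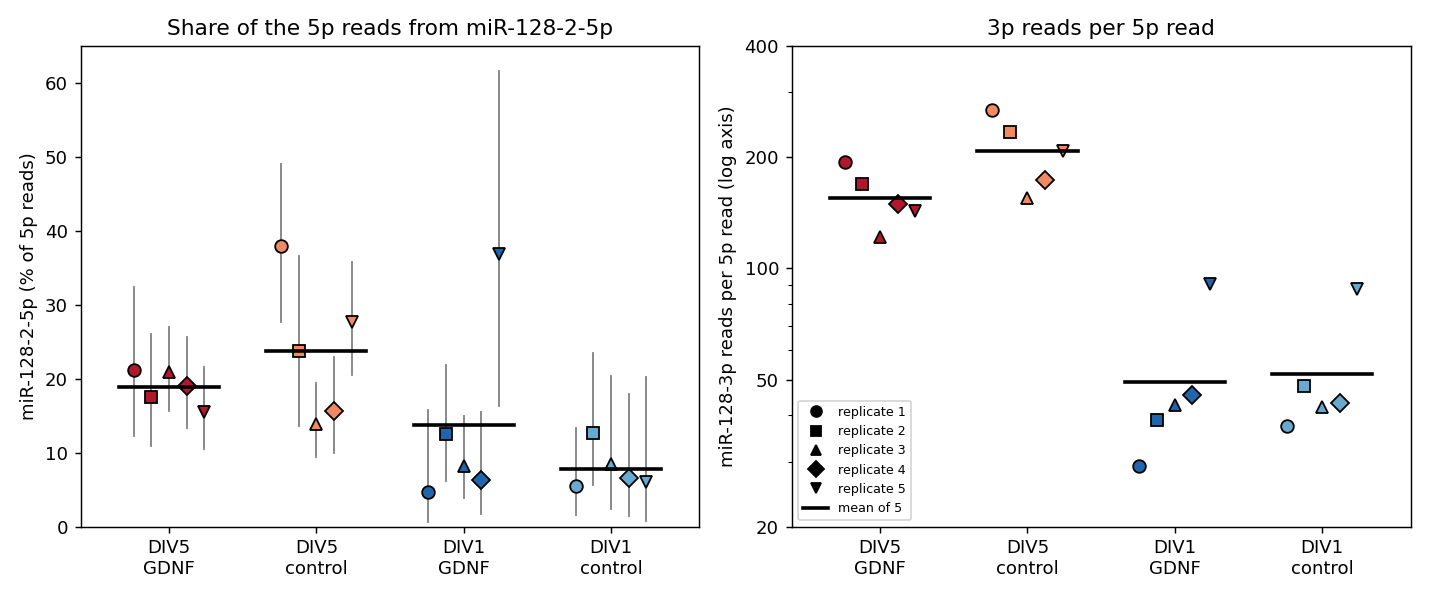
Left, share of the 5p reads that came from miR-128-2-5p in each library, with exact 95% binomial intervals as grey lines; right, miR-128-3p reads per 5p read (log axis). Black lines are means of 5 libraries; the share is 13.9% to 37.9% in DIV5 control and 5.48% to 12.7% in DIV1 control libraries, and the 3p reads per 5p read are higher in every DIV5 library than in any DIV1 library.

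The ratio of the 3p arm to the summed 5p arms was higher at DIV5. DIV5 GDNF libraries had 155 ± 27.4 miR-128-3p reads per 5p read and DIV1 GDNF libraries 49.4 ± 23.9 (SD, n = 5 each). Without GDNF there were 208 ± 45.4 at DIV5 and 51.8 ± 20.6 at DIV1. The lowest DIV5 library had 122 and the highest DIV1 library 90.7. On the log2 scale the difference between the days was 1.76 with GDNF and 2.06 without, each with an exact permutation p of 0.00794 (n = 5 each, adjusted over 8 tests p = 0.0212). At DIV1 the libraries numbered 5 stood apart in both groups, with 90.7 (GDNF) and 88.0 (control), where the others had 29.1 to 48.1. Without both of them the differences were 2.00 with GDNF and 2.26 without (exact p = 0.0159, adjusted p = 0.0317 for each). Within DIV5 numbers 1 and 2 the differences were 1.99 with and 2.35 without GDNF, and within numbers 3 to 5 they were 1.60 and 1.86. These had the smallest exact p such sets allow, 0.0952 for numbers 1 and 2 and 0.0357 for numbers 3 to 5 (adjusted p = 0.254 and 0.0952). Opposite changes of the arms were not particular to miR-128. With and without GDNF, miR-124-3p had log2 values of 1.31 and 1.36, and miR-124-5p of -1.35 and -1.22. For miR-212 both arms rose (3p 1.09 and 1.25, 5p 1.91 and 1.56). How many other hairpins show either pattern was not counted.

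GDNF gave no called change in any miR-128 arm on either day. At DIV5 miR-128-3p averaged 7453 CPM with GDNF and 8841 CPM without, and the groups overlapped (log2 -0.25, 95% interval -0.79 to 0.30, edgeR adjusted p = 0.775). With DIV5 numbers 3 to 5 alone the log2 value was 0.015 and with numbers 1 and 2 alone it was -0.55. miR-128-1-5p had a log2 value of 0.31 (interval -0.12 to 0.74, adjusted p = 0.538) and miR-128-2-5p of -0.06 (interval -0.77 to 0.64, adjusted p = 0.988). For miR-128-1-5p the value was 0.16 with numbers 1 and 2, 0.37 with numbers 3 to 5 and 0.07 without DIV5 control libraries 1 and 5. For miR-128-2-5p it was -0.77 with numbers 1 and 2 and 0.40 with numbers 3 to 5. Between same-numbered DIV5 libraries, miR-128-1-5p was higher with GDNF in 5 of 5 pairs, by 0.97 to 17.5 CPM. The share of all 542 miRNAs with every pair in 1 direction was not counted. miR-128-3p and miR-128-2-5p were each higher with GDNF in 2 pairs and lower in 3. With the replicate number as a block within each day, the log2 value of miR-128-1-5p was 0.31 and was not called (edgeR adjusted p = 0.307). The groups overlapped for every arm, as they did for all but 0.923% of miRNAs, each of those higher with GDNF. edgeR called 0.185% of miRNAs, 1 of 542, where DESeq2 called 26. That count was 3 with the replicate number as a block within each day, 43, 32 and 37 without DIV5 control library 2, 3 or 4, and 0 without DIV5 GDNF library 1 or 2.

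At DIV1 miR-128-3p averaged 2957 CPM with GDNF and 2899 CPM without (log2 0.03, interval -0.52 to 0.58, edgeR adjusted p = 1). miR-128-1-5p had a log2 value of 0.09 (interval -0.35 to 0.53) and miR-128-2-5p of 0.61 (interval -0.40 to 1.63), each with an adjusted p of 1. Without both DIV1 libraries numbered 5 the value of miR-128-2-5p was 0.17. The groups overlapped for every arm, and 0.185% of miRNAs had groups that did not. edgeR called 0% of miRNAs, with 7 at an unadjusted p under 0.05, and DESeq2 and limma voom also called 0. As a ratio of GDNF to control, the 95% interval of miR-128-3p was 0.577 to 1.23 at DIV5 and 0.697 to 1.49 at DIV1. Both intervals come from the fit without pairing, so they include the spread between replicate numbers. In DIV1 libraries 1 to 5, miR-128-3p had 1738, 2792, 2926, 2848 and 4482 CPM with GDNF. The same numbers had 1844, 2777, 2777, 2598 and 4498 CPM without it. Intervals within numbers are not given here.

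Neither ratio passed for GDNF. The log2 ratio of the 3p arm to the summed 5p arms differed by -0.41 at DIV5 (exact permutation p = 0.0635, adjusted p = 0.127, n = 5 each) and by -0.11 at DIV1 (exact p = 0.714). At DIV5 it was lower with GDNF in 5 of 5 same-numbered pairs (differences of -0.54 to -0.22), with a paired exact p of 0.0625 (adjusted p = 0.125), the smallest that 5 pairs can give. This ratio differed by -0.46 within DIV5 numbers 1 and 2 and by -0.37 within numbers 3 to 5. The ratio of the 5p arms differed by 0.35 at DIV5 (exact p = 0.373; higher in 3 of 5 pairs) and by -0.51 at DIV1 (exact p = 0.548). Within DIV5 numbers 1 and 2 the DIV5 difference was 0.86, and within numbers 3 to 5 it was 0.0078. The GDNF effects at DIV5 and DIV1 were also compared with each other in edgeR. The difference was -0.27 for miR-128-3p (SE 0.372), 0.22 for miR-128-1-5p (SE 0.296) and -0.67 for miR-128-2-5p (SE 0.592), with adjusted p of 0.919, 0.919 and 0.846. With DIV5 numbers 1 and 2 these were -0.57, 0.08 and -1.33, and with numbers 3 to 5 they were 0.020, 0.30 and -0.16, none of them called. In that comparison 0% of miRNAs were called by edgeR, with 50 at an unadjusted p under 0.05, and by DESeq2 and limma voom 0.

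By mean level the groups ran from DIV5 control through DIV5 GDNF and DIV1 GDNF to DIV1 control for miR-128-3p, and in the same order for miR-128-2-5p. For miR-128-1-5p the order was DIV1 GDNF, DIV1 control, DIV5 GDNF, DIV5 control. Neighbours of the same day did not differ beyond their spread for any arm, nor did DIV5 GDNF and DIV1 GDNF for miR-128-2-5p.

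Other neuron-enriched miRNAs changed with time as well. Of the 13 tested arms of a list of 15, 8 rose, 1 fell and 4 did not pass at DIV5 against DIV1 with GDNF (median log2 1.09, against 0.00167 over all 542). Without GDNF 10 rose and 1 fell (median 1.25, against 0.103 over all). Of all 542 miRNAs, 25.1% were called higher and 27.3% lower with GDNF, and 31.4% and 29.3% without. The list was chosen with earlier results of these data known. miR-124-3p, which represses non-neuronal transcripts in mouse neurons, averaged 6044 ± 880.5 CPM at DIV5 and 2443 ± 197 CPM at DIV1 with GDNF (log2 1.31, edgeR adjusted p = 1.05e-08). Without GDNF it averaged 6064 ± 165 CPM at DIV5 and 2359 ± 276 CPM at DIV1 (log2 1.36, adjusted p = 4.92e-09). Its opposite arm, miR-124-5p, was the arm that fell (log2 -1.35 with and -1.22 without GDNF). miR-153-3p had log2 values of 0.83 with and 0.71 without GDNF, each called. miR-218-5p (0.41 and 0.94) and miR-9-3p (0.20 and 0.60) were called without GDNF only; the difference between those conditions was not called for either (adjusted p = 0.725 each). miR-9-5p, of progenitors and young neurons, was not called (0.0017 and -0.11).

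**Figure D4:**
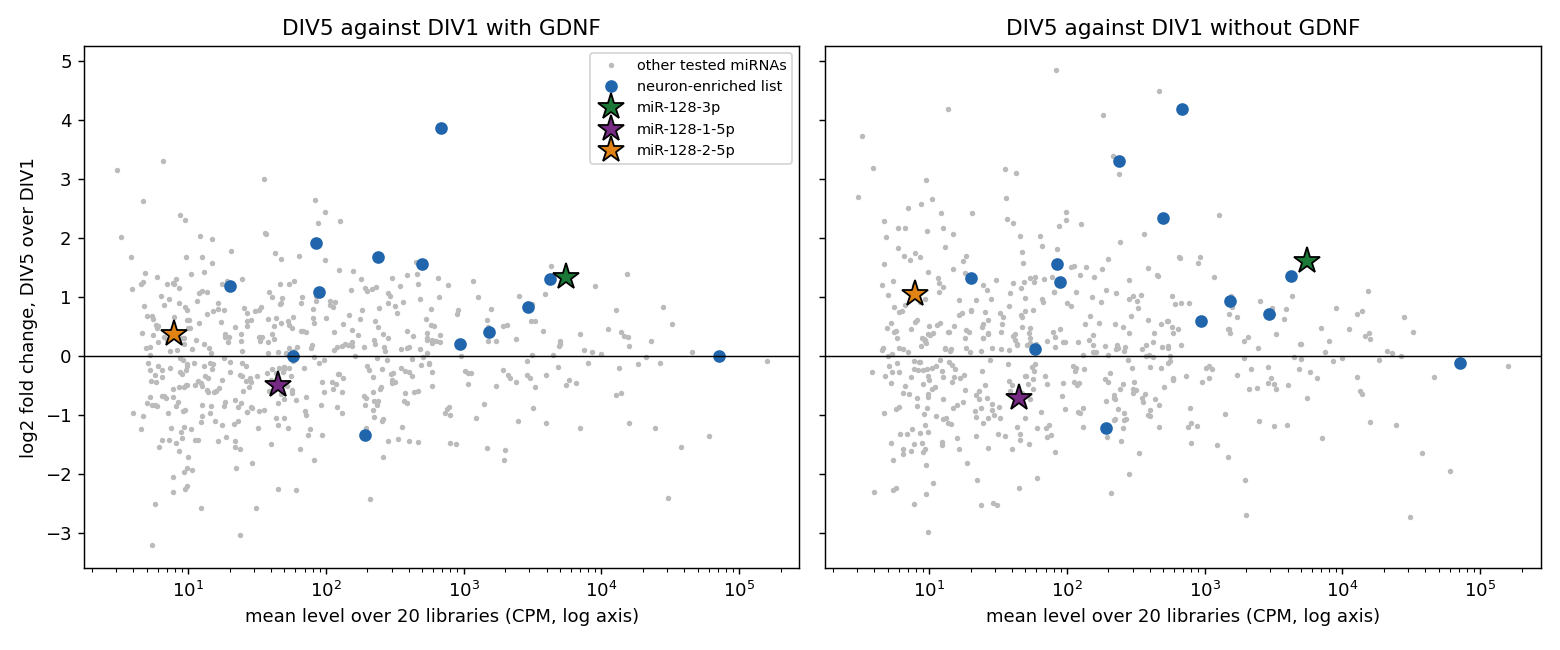
Log2 fold change between DIV5 and DIV1 against mean level (CPM, log axis) for the 542 tested miRNAs, with GDNF on the left and without on the right. Blue points are the 13 tested neuron-enriched arms and stars the miR-128 arms; miR-128-3p stands at 1.33 and 1.61.

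The profile most like that of miR-128-3p, by the root mean square difference of mean-centred log2 CPM over the 20 libraries, was that of miR-204-5p (0.334), followed by let-7d-3p (0.378), miR-124-3p (0.387), miR-212-3p (0.421) and miR-383-5p (0.424). Candidates were the 437 other miRNAs with a mean of at least 10 CPM. All 5 were called higher at DIV5 with GDNF and without it. They were picked for their likeness over these same libraries, so this rise largely follows from the choice and is no separate result. Their log2 values were 1.27 and 1.34 for miR-204-5p, 0.73 and 0.82 for let-7d-3p, 1.09 and 1.25 for miR-212-3p and 1.38 and 1.49 for miR-383-5p.

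Markers of other cells also moved between the days, and in bulk RNA fewer cells of a type and less RNA per cell cannot be told apart. All 9 miRNAs of the miR-17-92 and miR-106b-25 clusters, linked to proliferating cells, fell with GDNF (median log2 -1.14) and without it (median log2 -1.17). Of all 542 miRNAs, 27.3% were called lower with GDNF and 29.3% without (median log2 of all 0.00167 and 0.103). Their summed level was 15490 to 23870 CPM at DIV5 and 61800 to 77140 CPM at DIV1 with GDNF, and 15060 to 21000 CPM at DIV5 and 61080 to 83950 CPM at DIV1 without. The most abundant of them, miR-92a-3p, averaged 9513 ± 2372 CPM at DIV5 and 50450 ± 4502 CPM at DIV1 with GDNF, and 8213 ± 1752 CPM at DIV5 and 54660 ± 9238 CPM at DIV1 without.

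The shares called lower over all 542 miRNAs were 27.3% with GDNF and 29.3% without (median log2 of all 0.00167 and 0.103). Of the blood and microglial list 3 of 6 arms were tested and all were called lower at DIV5 (median log2 -2.25 with and -2.24 without GDNF). The list summed to 12.01 to 63.2 CPM at DIV5 and 70.2 to 174 CPM at DIV1 over both treatments, with miR-142a-5p, of blood cells, the most abundant. Of the vascular and mesenchymal list 6 of 7 arms were tested and 3 were called lower with and without GDNF (median log2 -0.90 and -1.40). Its sum, mostly miR-143-3p of smooth muscle, was 316 to 3129 CPM at DIV5 and 2911 to 5069 CPM at DIV1, and these ranges overlapped.

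In the glial list all 3 arms were tested, and 1 was called higher at DIV5 with GDNF and 2 without (median log2 -0.08 and 0.99). Over all 542 miRNAs, 25.1% were called higher and 27.3% lower with GDNF, and 31.4% and 29.3% without. It summed to 2563 to 3161 CPM at DIV5 and 2662 to 3482 CPM at DIV1, mostly from miR-21a-5p, which was not called. In the oligodendrocyte list 2 of 4 arms were tested, of which 1 was called higher and 1, miR-219a-2-3p, lower. Its sum was 183 to 431 CPM at DIV5 and 445 to 658 CPM at DIV1. The epithelial and choroid plexus list summed to 1235 to 2379 CPM at DIV5 and 618 to 923 CPM at DIV1. In that list 2 of 7 arms were tested. miR-204-5p made up most of the sum and rose, miR-211-5p fell, and the other 5 had 10 to 101 reads over all 20 libraries. The part of these shifts in the change of miR-128-3p was not tested.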

How the data were processed

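For each of the 20 libraries the authors deposited unscaled counts of reads on mature miRNAs. The submitters' processing notes name cutadapt 1.8.1, STAR 2.4.1d, HTSeq and build mm10. The miRNA annotation and the treatment of reads with several matches are not given in the sources used here. Per the labels' protocols, RNA was isolated with Tri-reagent and libraries were made with TruSeq small RNA chemistry. The 5 tally lines of each file were left out of totals. Among them, reads without a feature were 9.51% to 22.6% of the sum of miRNA counts and reads without a feature.

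In R 4.3.3 with edgeR 4.0.16, filterByExpr (minimum count 10) kept 542 of 1581 miRNAs with reads. TMM scaling and 1 quasi-likelihood fit of all 20 libraries (robust, 1 coefficient per group) gave 5 two-sided contrasts, with Benjamini-Hochberg adjustment over all 542. The SE is the log2 value divided by the square root of F. Ratios of arms were tested with exact two-sided permutation tests (scipy 1.17.1). Alternatives used DESeq2 1.42.0, limma 3.58.1, other filters and scalings, and fewer libraries. Libraries of a group were not near-identical (chi-square per degree of freedom at least 12.4). Same-numbered DIV5 libraries deviated together (correlations of 0.207 to 0.532), so numbers pair the DIV5 groups by the data. In the other comparisons at least 1 pair was under 0.1 and numbers were not taken as pairs. The members, lists and naming rule were chosen with earlier results of these data known. The rule named the members, the 5 profiles nearest to miR-128-3p among miRNAs with at least 10 CPM, the 5 most abundant neuron-enriched arms, the most abundant arm of each other list, and sharers of the seed. Other list members named are those that fell or are at 0, and miR-212-5p as the opposite arm of miR-212-3p. Other arms of those at 0 are also named, and all of these were chosen after their values were seen.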

Additional observations from a re-analysis of the deposited data

Results flagged for a closer look

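In 20 sets of 5 libraries (3 arms and 2 ratios in 4 groups) the gap of the most extreme library was compared with the range of its group. Chance flags about 1 in 20 such sets, and 2 were found. miR-128-3p in DIV5 GDNF library 2 had 10662 CPM, where the other 4 libraries had 6482 to 6910 CPM. DIV5 control library 2 was also the highest of its group, at 13586 CPM. miR-128-1-5p in DIV1 GDNF library 5 had 31.2 CPM from 12 reads, where the other 4 libraries had 56.9 to 62.9 CPM. This library held the fewest counts of the series, 420118.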

How the results depend on the processing

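The rise of miR-128-3p between DIV1 and DIV5 was called in all 22 alternatives with GDNF (log2 1.19 to 1.61) and in all 23 without (1.17 to 2.14). The fall of miR-128-1-5p without GDNF was called in 20 of 23, and lost with no filter (log2 -0.50, adjusted p = 0.138), without DIV5 control libraries 1 and 5 (-0.46, 0.0752) and with DIV5 numbers 1 and 2 alone (-0.56, 0.126). With GDNF it was called in 8 of 22: by DESeq2 (-0.49), limma voom (-0.55), with a mean of at least 10 CPM (-0.48), with the replicate block (-0.48), without both DIV1 libraries numbered 5 (-0.53), without both DIV5 libraries numbered 2 (-0.58), and in 2 of 10 fits without 1 library (range -0.58 to -0.38). The rise of miR-128-2-5p without GDNF was called in 12 of 21, with values of 0.82 to 1.38 without 1 library. It was lost with limma voom (0.83), without DIV5 control libraries 1 and 5 (0.75), with DIV5 numbers 3 to 5 (0.57) and without both DIV5 libraries numbered 2 (0.95). The cause of these changes was not tested. This arm is under the filter in the 10 CPM setting, and in the fits of the 2 DIV1 groups or of the 2 control groups alone, so it has no value there. The alternatives without both libraries of a number were chosen after the data were seen.

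No arm was called for GDNF in any alternative. Values near 0 changed sign. For GDNF at DIV1, miR-128-3p stood at -0.018 with no filter and between -0.19 and 0.23 without 1 library. At DIV5, miR-128-3p stood at 0.015 with numbers 3 to 5, where the difference of the GDNF effects was 0.020. At DIV5, miR-128-2-5p stood at 0.10 with limma voom, 0.25 without DIV5 control libraries 1 and 5, 0.40 with numbers 3 to 5, -0.77 with numbers 1 and 2 and between -0.24 and 0.19 without 1 library. The log2 ratio of the 5p arms for GDNF at DIV1 lay between -0.79 and 0.042 without 1 library and at 0.095 without both libraries numbered 5, and at DIV5 it was -0.13 without control libraries 1 and 5. The ratio of the 3p arm to the 5p arms at DIV1 lay between -0.35 and 0.098 without 1 library.

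The 3 ratio differences called between the days are, in order, that of the 5p arms without GDNF and those of the 3p arm to the 5p arms without and with GDNF. Smaller sets raise the smallest exact p, to 0.0357 for 3 against 5 libraries and 0.0952 for 2 against 5. As a replicate block, the paired differences of -1.70, 2.06 and 1.76 had the smallest exact p that 5 pairs allow, 0.0625. With DIV5 numbers 1 and 2 the values were -2.27, 2.35 and 1.99, and with numbers 3 to 5 they were -1.31, 1.86 and 1.60. Without DIV5 control libraries 1 and 5 the values without GDNF were -1.22 and 1.91. The ratio of the 5p arms with GDNF was called without both DIV1 libraries numbered 5 (-1.39) and lay between -1.39 and -0.56 without 1 library. The replicate block changed no other call of an arm. For ratios it could make no new call, since 5 pairs cannot give a p under 0.0625. Same-numbered libraries correlated by 0.0223 to 0.508 at DIV1 and by -0.112 to 0.147 across the days, and 4 of 5 at DIV5, 3 of 5 at DIV1 and 0 and 1 of 5 across the days correlated best with their own number.

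The edgeR count for GDNF at DIV5, 1 miRNA, was 26 with DESeq2, 13 with a mean of at least 10 CPM, 3 with a replicate block within each day, 2 with DIV5 numbers 1 and 2 or 3 to 5, 20 without both DIV5 libraries numbered 2, 0 without DIV5 control libraries 1 and 5 or with the DIV5 groups alone, and 0 to 43 without 1 library. For the difference of the GDNF effects it was 0, and 1 with numbers 3 to 5 or without DIV5 control library 2. Counts between the days stayed within 1.5 times. Depth limits miR-128-2-5p most, with 2 to 10 reads per DIV1 library.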
